A study of Mus musculus with 16 samples.

Results

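The 3 family labels of the class Clostridia, Clostridia_vadinBB60_group, [Eubacterium]_coprostanoligenes_group and Monoglobaceae, were followed in mouse stool by sequencing of the bacterial 16S rRNA gene. Members were all amplicon sequence variants (ASVs, distinct sequences inferred from the reads) whose family label was 1 of these 3. They were 42 of the 1330 ASVs in the series: 35 of the vadinBB60 group, 5 of the coprostanoligenes group and 2 of Monoglobaceae. Together they took 18424 of 948231 reads, or 1.94%. The 3 families were selected on earlier results of the same data. The vadinBB60 and coprostanoligenes groups had been called higher under DSS in WT mice. Monoglobaceae had been called lower in healthy KO mice than in healthy WT mice, and higher in KO mice under DSS than in healthy KO mice. For those contrasts, and for every interaction, the families and their ASVs are described below with no p-value, and counts of members past the threshold that include them support nothing.

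The mice were wild type (WT) or carried a knock-out of Msc (KO), the gene of musculin, a basic helix-loop-helix transcriptional repressor studied in muscle precursors and T cells. Stool was taken at time point T0 from healthy mice and at T1 under colitis induced by dextran sulfate sodium (DSS), a polysaccharide that injures the colonic epithelium when drunk. There were thus 4 groups, healthy and DSS libraries of each genotype, with 4 libraries each, numbered 0 to 3 as in the labels. Strain, age, sex, cage, the DSS dose and whether a number marks the same mouse at both times were not given in the sources used here. All DSS libraries were from T1 and all healthy ones from T0, so DSS and time cannot be told apart. Nothing says that the libraries of a group came from separate mice, so p-values measure the spread between these libraries.

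Clostridia are mostly strict anaerobes of the colon, and many of them ferment fibre to short-chain fatty acids. The vadinBB60 group is known almost entirely from 16S sequences of uncultured bacteria and is common in the rodent gut. The coprostanoligenes group takes its name from Eubacterium coprostanoligenes, which reduces cholesterol to the poorly absorbed sterol coprostanol. Monoglobaceae is the family of Monoglobus pectinilyticus, a specialist in degrading pectin. A 16S read count gives the share of a bacterium among the reads of a library, so growth of a bacterium and loss of the others cannot be told apart.

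The libraries held 49253 to 70577 reads. At that depth 3 reads, the limit that a count of 0 allows, were 0.00425% to 0.00609% of a library. Counting intervals and limits cover counting error only, since PCR reads are not independent molecules. WT DSS replicate 1 stood apart from the rest with 844 ASVs seen, of which 711 were in no other library, and 0 of those 711 were members. The other libraries held 172 to 280 ASVs. The confidence of the family assignments ran from 0.774 to 1 over the members, with a median of 0.993. It was 0.807 for asv28, the most abundant member, where asv28 is the ASV ranked 28 by reads over all libraries. Every other ASV is named in the same way.

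The 3 families together were at 1.05% ± 0.279 (SD, n = 4) of reads in WT healthy and 1.10% ± 0.627 in KO healthy. Under DSS they were at 4.18% ± 1.76 in WT and 1.35% ± 0.366 in KO mice. The WT DSS libraries ran from 1.98% to 6.05%, above the other 12, which ran from 0.268% to 1.86%. Behind the similar sums of the other groups stood different makeups. Monoglobaceae was all but missing from KO healthy, and some abundant ASVs of the vadinBB60 group were seen in 1 genotype or mainly there.

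**Figure D1:**
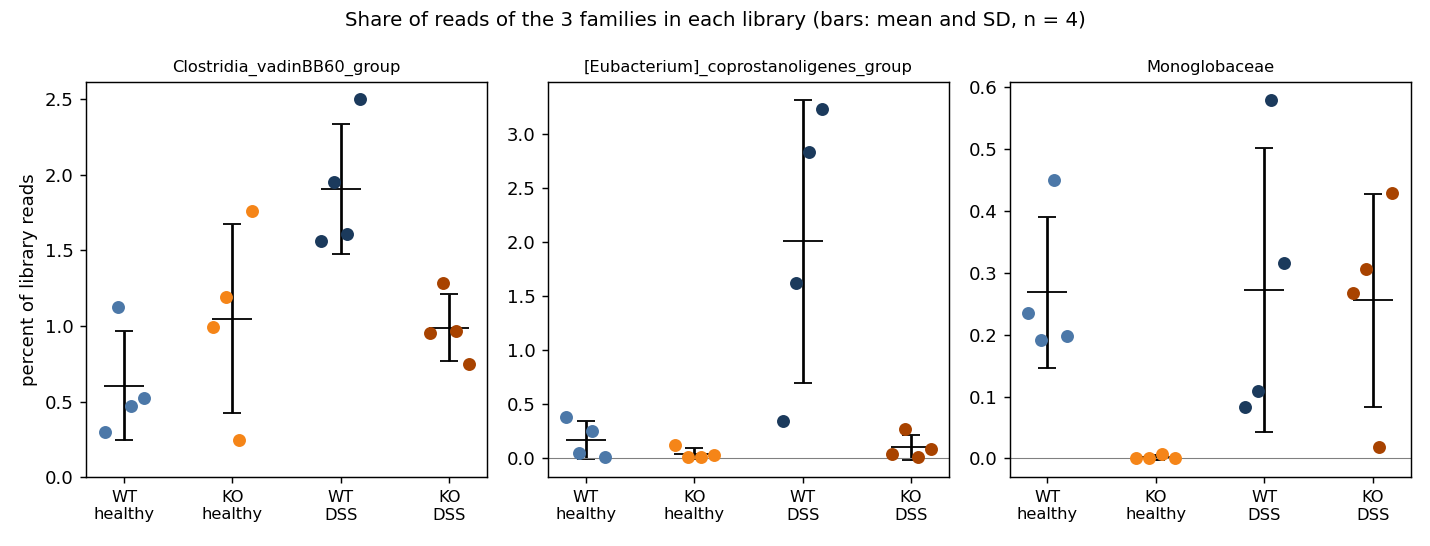
Percent of library reads (vertical axis, linear) of each family in the 16 libraries, grouped by genotype and condition. Points are libraries and black bars are the mean and SD of 4 libraries. The coprostanoligenes group lies between 0.341% and 3.23% in WT DSS and at or below 0.378% elsewhere, and Monoglobaceae is at or below 0.0071% in KO healthy.

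The coprostanoligenes group was a small part of the stool bacteria outside WT DSS. In WT healthy it took 0.378%, 0.0487%, 0.252% and 0.00753% of reads in replicates 0 to 3. In KO healthy it took 0.123%, 0.00984%, 0.0124% and 0.0288%. In WT DSS it took 0.341%, 1.62%, 2.83% and 3.23%, and in KO DSS 0.0411%, 0.271%, 0.0144% and 0.0893%. WT DSS replicate 0 was therefore lower than the highest WT healthy library, while WT DSS and KO DSS did not overlap. The Wilson 95% intervals of those 2 libraries were 0.297% to 0.39% in WT DSS replicate 0 and 0.332% to 0.43% in WT healthy replicate 0.

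The coprostanoligenes group was lower in KO DSS than in WT DSS, with a log2 fold change of -4.62 ± 1.29 (SE, n = 4 libraries per group, edgeR quasi-likelihood fit over 66 taxa). The means were 0.104% ± 0.116 in KO DSS and 2.00% ± 1.31 in WT DSS, a ratio of 19.3. Of the 66 taxa tested in that contrast, 13.6% passed the threshold, an adjusted p under 0.05. The value was past the threshold, but not without WT DSS replicate 2, KO DSS replicate 2 or KO DSS replicate 3. The WT DSS libraries in this contrast are those in which the family had already been called. It therefore adds only the KO DSS side, and the value is a description with no test. It rests on asv28, described below. Without asv28 the means were 0.104% in KO DSS and 0.031% in WT DSS. In WT mice the group was 4.19 ± 1.27 higher under DSS than at T0 on the log2 scale, a contrast used to choose it. In KO mice the change under DSS was 1.29 ± 1.15 (edgeR adjusted p = 0.365), and between KO and WT healthy it was -1.72 ± 1.16 (edgeR adjusted p = 0.424), neither past the threshold. The interaction, which subtracts the KO against WT value of healthy mice from that under DSS, was -2.90 ± 1.62. With 1 library left out at a time, these 3 values ran from 0.19 to 2.70, from -3.13 to -0.76 and from -4.00 to -1.49.

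A single sequence, asv28, made up the WT DSS level of the coprostanoligenes group. It had 167, 946, 1614 and 2129 reads in WT DSS replicates 0 to 3 and no read in any of the other 12 libraries. It was 85.2% of all reads of the family and 81.1% to 99.8% of the family in each WT DSS library. Against KO DSS it was at least 399.6-fold higher, taking 3 reads per KO DSS library as the limit of detection. It met the filter through its WT DSS libraries alone, in which the family had been chosen, so the fitted log2 fold change of -13.55 ± 1.60 is a description with no test. Its share ran from 0.276% to 3.20% over the WT DSS libraries, and replicate 0 was the low one.

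Without asv28 the coprostanoligenes group had its lowest mean in WT DSS, with overlap between the groups. The rest of the family took 0.171% ± 0.174 of reads in WT healthy, 0.0434% ± 0.0535 in KO healthy, 0.031% ± 0.0254 in WT DSS and 0.104% ± 0.115 in KO DSS. The second sequence, asv121, was seen in 15 of the 16 libraries and was lacking only from WT healthy replicate 0. Its reads were 0, 16, 149 and 5 in WT healthy and 71, 5, 7 and 16 in KO healthy. Under DSS they were 36, 2, 14 and 21 in WT and 18, 151, 8 and 54 in KO. The groups overlapped in every contrast, and no test of asv121 passed the threshold. KO against WT under DSS was 1.72 ± 1.45 on the log2 scale (edgeR adjusted p = 0.581), the opposite sign to asv28.

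The third sequence, asv216, had 226 reads in WT healthy replicate 0 and none elsewhere. It was all of the family in that library, the only library in which asv121 was not seen. The last members were rare. The ASV asv469 had 31 reads over 4 libraries, and asv833 had 11 reads in KO DSS replicate 0. Only asv28 and asv121 had enough reads to be tested, at least 5 reads in at least 4 libraries, and they held 95.3% of the reads of the family.

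The vadinBB60 group was the most abundant and most diverse of the 3 families, with 10774 reads over 35 ASVs. In WT healthy it took 0.301%, 1.12%, 0.471% and 0.526% of reads, and in KO healthy 0.994%, 1.19%, 0.249% and 1.76%. In WT DSS it took 1.56%, 1.95%, 1.61% and 2.50%, and in KO DSS 0.958%, 1.29%, 0.965% and 0.747%. The WT DSS libraries lay above all WT healthy and all KO DSS libraries, while KO healthy overlapped with each other group.

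Between KO and WT mice the family total had opposite signs in the healthy and the DSS libraries, and neither value passed the threshold. In healthy mice KO against WT was 1.004 ± 0.56 on the log2 scale (edgeR adjusted p = 0.309), with means of 1.05% ± 0.625 and 0.606% ± 0.359. Under DSS it was -1.21 ± 0.57 (edgeR adjusted p = 0.164), with means of 0.989% ± 0.222 and 1.91% ± 0.432. With TMMwsp scaling, a variant for tables with many zeros, the DSS value was -1.67 and passed the threshold (edgeR adjusted p = 0.0376). The DSS contrast reuses the WT DSS libraries in which the family had already been called, so it adds only the KO DSS side. The same holds for the ASVs of the family in that contrast. In WT mice the family was 2.24 ± 0.58 higher under DSS than at T0, a contrast used to choose it, and 1.65 with library totals as the only scaling. In KO mice DSS against healthy was 0.03 ± 0.56 (edgeR adjusted p = 1), and other scalings turned its sign. The interaction was -2.21 ± 0.80. The fits centre on the bulk of taxa, and the median log2 fold change over all 66 taxa was -0.35 between the healthy genotypes and 0.01 between the genotypes under DSS. Between T0 and DSS it was 0.01 in WT and 0.66 in KO mice.

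**Figure D2:**
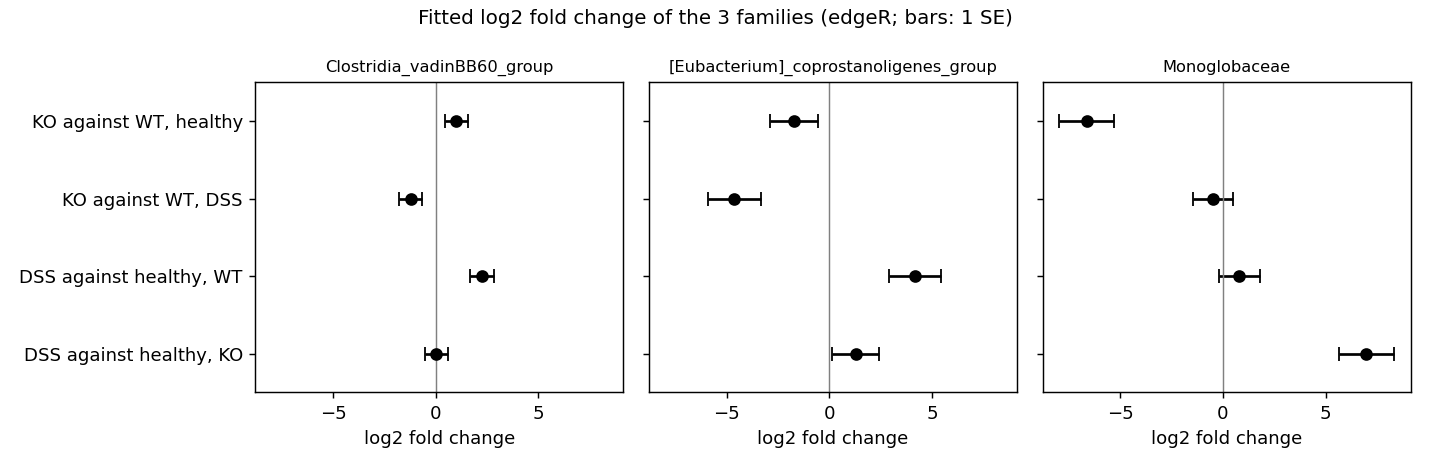
Log2 fold change (horizontal axis) of each family in the 4 pairwise contrasts, from the edgeR fit over all taxa, with bars of 1 SE. Values range from -6.63 for Monoglobaceae between KO and WT healthy to 6.97 for the same family between DSS and healthy KO mice, while the vadinBB60 group stays between -1.21 and 2.24.

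Within the vadinBB60 group, most ASVs were seen in part of the libraries. Only asv68 was in all 16 libraries, 13 of the 35 ASVs were in at least 8, and 3 were in a single library. By group, 26 were seen in WT healthy, 26 in KO healthy, 19 in WT DSS and 22 in KO DSS, and 11 were seen in all 4 groups. Per library, 10 to 18 were seen in WT healthy, 13 to 22 in KO healthy, 11 to 13 in WT DSS and 12 to 18 in KO DSS. At an equal depth of 140 family reads the expected numbers were 13.9 ± 3.25 (SD, n = 4) in WT healthy, 16.5 ± 3.38 in KO healthy, 10.4 ± 0.94 in WT DSS and 13.01 ± 2.73 in KO DSS. The leading ASV held 11.8% to 25% of the family in WT healthy libraries, 13.7% to 29.0% in KO healthy, 25.1% to 49.4% in WT DSS and 15.5% to 45.8% in KO DSS.

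In WT DSS the sequences with the largest mean shares of the family were asv49 and asv73, though asv68 led replicate 0 with 25.1% of the family. The ASV asv49, the most abundant of the family, had 231, 513, 458 and 758 reads in WT DSS and 11, 69, 51 and 9 in WT healthy. In KO healthy it had 3 reads in replicate 2 and none in the others, and in KO DSS none in any library. It was present in all 8 WT libraries and in 1 of 8 KO libraries. It met the filter through WT libraries alone, and the DSS contrast reuses the WT DSS libraries in which the family was chosen. Its genotype contrasts are therefore a description with no test. The log2 fold change of KO against WT was -12.23 ± 1.73 under DSS and -4.96 ± 1.28 in healthy mice, both past the threshold. Under DSS asv49 was at least 161.6-fold higher in WT than in KO, counting 3 reads per KO library, and the call held in each of the 8 runs with 1 library left out. In healthy mice the call held in 2 of 8 such runs.

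The ASV asv73 had 198, 380, 147 and 382 reads in WT DSS and 0, 17, 0 and 12 in KO DSS. In healthy mice it had 45, 67, 0 and 27 reads in WT and 0, 25, 4 and 7 in KO. The WT DSS libraries lay above all others, and the healthy groups overlapped. KO against WT under DSS was -5.36 ± 1.77 (edgeR adjusted p = 0.0539), just short of the threshold, and in healthy mice it was -1.57 ± 1.52 (edgeR adjusted p = 0.676). Together asv49 and asv73 were 64.4% ± 13.7 of the family in WT DSS, 20.7% ± 9.06 in WT healthy, 2.46% ± 2.47 in KO healthy and 1.23% ± 1.43 in KO DSS.

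Another sequence, asv155, was seen in WT DSS replicates 1, 2 and 3, with 47, 158 and 183 reads, and was not seen in replicate 0. Outside WT DSS it had 6 reads in KO healthy replicate 3. It was at least 31.9-fold higher in WT DSS than in KO DSS (log2 fold change of KO against WT -9.90 ± 2.56). It met the filter through 3 WT DSS libraries, in which the family was chosen, and the 1 KO healthy library with 6 reads. The value is therefore a description with no test. It was past the threshold, and stayed past it in 3 of 8 runs with 1 library left out. With asv49, asv73 and asv155 taken out, the rest of the family was at 0.498% ± 0.254 in WT DSS and 0.480% ± 0.27 in WT healthy. In KO mice it was at 0.977% ± 0.217 under DSS and 1.03% ± 0.618 in healthy mice. These 3 ASVs were picked after their values were seen, so those sums are a description.

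**Figure D3:**
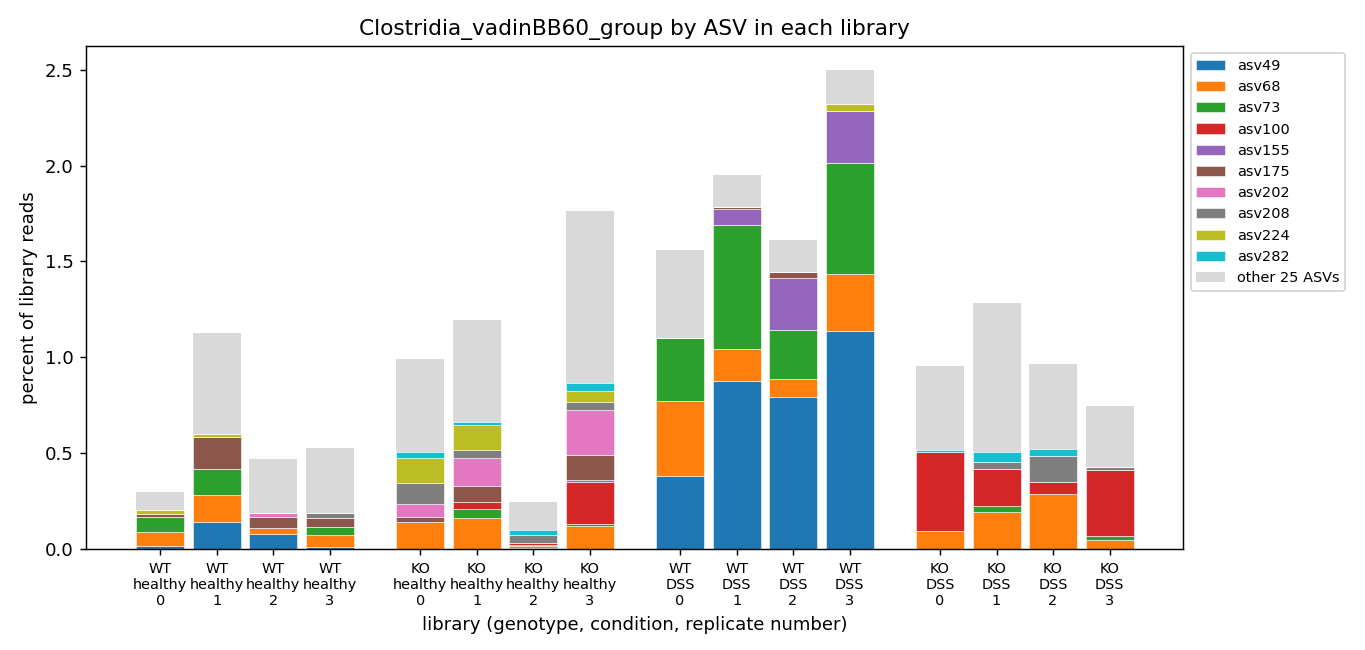
Percent of library reads (vertical axis) of the vadinBB60 group in each library, stacked by ASV, with the 10 named ASVs in colour and the other 25 in grey. In WT DSS, asv49 and asv73 together are 45.4% to 78.1% of each bar, asv155 is seen in replicates 1 to 3, and asv100 is seen only in KO libraries.

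KO libraries carried other vadinBB60 sequences. The ASV asv100 had 290, 113, 33 and 207 reads in KO DSS and 0, 18, 5 and 121 in KO healthy, and none in any WT library. It was present in 7 of 8 KO libraries, and through these alone it met the filter on low counts. It was higher in KO than in WT under DSS by at least 50.8-fold (log2 fold change 10.36 ± 2.25). In healthy mice the log2 fold change was 8.11 ± 2.02, at least 12.9-fold, and at least 2.91-fold without KO healthy replicate 3, the library with 121 reads. As with asv28, these values are a description with no test. Both were past the threshold, under DSS in all 8 runs with 1 library left out and in healthy mice in 1 of 8. Within the family it was 27.5% ± 19.8 in KO DSS and 4.73% ± 5.32 in KO healthy.

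The rarer asv282 was likewise seen in KO libraries only. It had 17, 8, 14 and 24 reads in KO healthy, 6, 33, 21 and 0 in KO DSS and none in WT libraries, so it too met the filter through KO libraries alone. KO against WT was 7.07 ± 1.72 in healthy mice and 6.96 ± 1.79 under DSS, with bounds of at least 5.58-fold and 5.20-fold. Both were past the threshold, and both are a description with no test. The healthy call was lost in each run with 1 library left out, and the DSS call held in 2 of 8. Without KO DSS replicate 1 the DSS bound was 3.12-fold.

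The ASV asv208 had 64, 20, 23 and 24 reads in KO healthy and 0, 20, 74 and 9 in KO DSS. In WT libraries it had 16 reads in WT healthy replicate 3 and none elsewhere. Under DSS it was higher in KO than in WT by at least 9.22-fold (log2 fold change 7.60 ± 2.30), and by at least 3.31-fold without KO DSS replicate 2. The value was past the threshold, and stayed past it in 1 of 8 runs with 1 library left out. In healthy mice the groups did not overlap, yet the log2 fold change of 3.68 ± 1.82 did not pass the threshold. The KO libraries of asv208 met the filter without the 1 WT library, so both values are a description with no test.

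In KO mice 3 of the 24 tested vadinBB60 sequences (12.5%) were lower under DSS, where none of them had a read. Of all 308 tested ASVs, 17.9% were lower in this contrast, so the share is not a result about the family. The ASV asv175 had 16, 42, 0 and 74 reads in KO healthy and none in KO DSS (log2 fold change -8.10 ± 2.26, edgeR adjusted p = 0.0176). It fell by at least 12.3-fold, or 7.44-fold without KO healthy replicate 3, and the call held in all 8 runs with 1 library left out. In WT mice it had 10, 82, 37 and 31 reads in healthy and 0, 9, 17 and 0 in DSS libraries.

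The ASV asv202 had 38, 75, 0 and 129 reads in KO healthy and none in any DSS library, with 11 reads in WT healthy replicate 2. In KO mice it fell under DSS by at least 22.5-fold (log2 fold change -8.98 ± 2.65), or 14.4-fold without KO healthy replicate 3. It was past the threshold but met the filter through healthy libraries alone, so the value is a description with no test. The ASV asv224 had 75, 65, 0 and 31 reads in KO healthy and none in KO DSS, and fell by at least 15.9-fold (log2 fold change -8.59 ± 2.78). It was past the threshold but met the filter only with its KO healthy libraries, so this value too is a description with no test. Its WT reads were 11, 9, 0 and 0 in healthy and 0, 0, 0 and 22 in DSS libraries. The call for asv202 held in 2 of 8 runs with 1 library left out and that for asv224 in 1 of 8. KO healthy replicate 2 lacked all 3 sequences and had the lowest family share of all 16 libraries, 0.249%.

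The ASV asv68 was seen in every library. It had 44, 70, 21 and 41 reads in WT healthy, 82, 83, 7 and 66 in KO healthy, 237, 98, 52 and 197 in WT DSS and 69, 114, 161 and 30 in KO DSS. The groups overlapped in every contrast. Between genotypes its log2 fold change was 0.77 ± 0.77 in healthy mice (edgeR adjusted p = 0.686) and -0.80 ± 0.77 under DSS (edgeR adjusted p = 0.671). In WT mice DSS against healthy, a contrast used to choose the family, was 2.05 ± 0.79, with means of 0.236% ± 0.134 and 0.0775% ± 0.0464. In KO mice it was 0.48 ± 0.76 (edgeR adjusted p = 0.736). The ASV held 9.92% to 15.5% of the family on average in the 4 groups.

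The other 25 vadinBB60 ASVs were rarer than asv100, with 3 to 437 reads each, and 14 of them were tested. That none of these is past the threshold follows from the rule, by which any member past it is named. Some were limited to a few libraries, such as asv205, chosen here after its values were seen, with 25, 64 and 161 reads in KO healthy replicates 0, 1 and 3, the KO healthy libraries that held asv202. The makeup of the family differed between libraries of 1 group too. The mean Bray-Curtis distance between the family makeups of 2 libraries (0 for the same makeup, 1 for no shared ASV) was 0.299 within WT DSS and 0.501, 0.575 and 0.554 within WT healthy, KO healthy and KO DSS. Between WT DSS and KO DSS it was 0.823, with a range of 0.628 to 0.892 over 16 pairs. Between WT healthy and KO healthy it was 0.642, and between the T0 and DSS libraries of a genotype it was 0.625 in WT and 0.656 in KO.

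**Figure D4:**
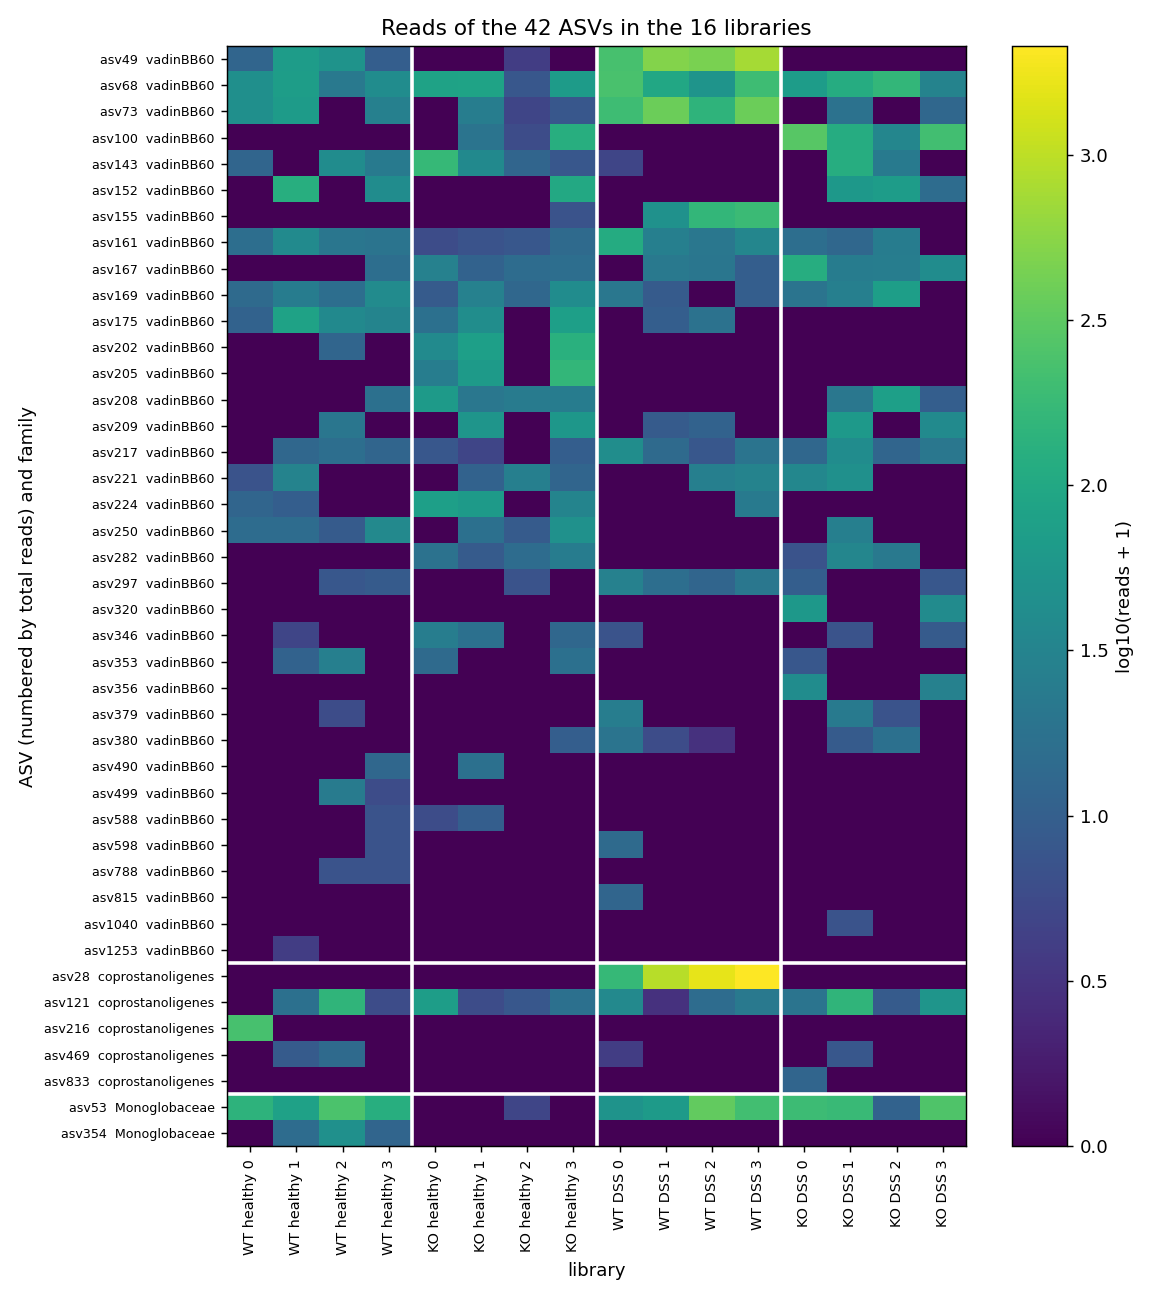
Reads of all 42 member ASVs (rows, by family and then by total reads) in the 16 libraries (columns), on a log10(reads + 1) colour scale. The top row, asv49, is bright in WT DSS and dark in KO libraries, asv28 has reads only in WT DSS, and asv53 is dark in KO healthy.

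Monoglobaceae was present in every library but 3, all of them KO healthy. In WT healthy it took 0.236%, 0.191%, 0.449% and 0.197% of reads. In KO healthy it had 4 reads in replicate 2 (0.0071%, Wilson 95% interval 0.00276% to 0.0183%) and none in replicates 0, 1 and 3, which allows shares of up to 0.00518%, 0.0059% and 0.0054%. In WT DSS it took 0.0827%, 0.109%, 0.579% and 0.316%, and in KO DSS 0.268%, 0.307%, 0.018% and 0.428%. KO healthy lay below all other libraries, and KO DSS replicate 2, with 10 reads, was the next lowest.

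The contrasts that had chosen Monoglobaceae were KO against WT in healthy mice, -6.63 ± 1.32 on the log2 scale, and DSS against healthy in KO mice, 6.97 ± 1.34. Both rest on the same KO healthy libraries and grew without replicate 2, the library with 4 reads, to -10.0 and 10.34. The remaining contrasts do not compare those libraries, but each reuses 1 group of the contrasts that chose the family. These groups are KO DSS and WT healthy, so each contrast adds only its WT DSS side. The fit took its spread from all 16 libraries, KO healthy included. Under DSS, KO against WT was -0.47 ± 0.98 (edgeR adjusted p = 0.828), with means of 0.255% ± 0.172 and 0.272% ± 0.23. In WT mice, DSS against healthy was 0.80 ± 0.98 (edgeR adjusted p = 0.548), with means of 0.272% ± 0.23 and 0.268% ± 0.122. The ratio of these means was 1.01, so 0.80 is not a rise in mean share. With library totals as the only scaling, the median over all 66 taxa moved from 0.01 to -0.59 in that contrast. Neither contrast passed the threshold, which does not show that the levels were alike. The interaction was 6.17 ± 1.59.

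A single sequence, asv53, held 96.4% of the reads of Monoglobaceae. Its reads were 141, 80, 243 and 120 in WT healthy and 0, 0, 4 and 0 in KO healthy. Under DSS they were 50, 64, 333 and 210 in WT and 189, 179, 10 and 259 in KO. The same sequence was thus seen in both genotypes, and in KO mice mainly in the DSS libraries. Its log2 fold change between genotypes under DSS was -0.31 ± 1.10 (edgeR adjusted p = 1). The second, asv354, was seen in WT healthy replicates 1, 2 and 3 with 14, 46 and 11 reads and in no other library, including all 8 DSS libraries. It had reads in too few libraries to be tested.

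Over the 3 families, 27 of the 42 ASVs had enough reads to be tested, and they held 95.2% of the reads. Those 27 passed a filter that the group where a member is high can meet alone, so their counts describe and support nothing. Between KO and WT healthy, 2 were higher and 2 lower, against 3.25% and 3.9% of all 308 tested ASVs. The 2 higher were asv100 and asv282, and the 2 lower were asv49 and asv53, the last from a contrast used in the choice. Between KO and WT under DSS, 3 were higher (asv100, asv208 and asv282) and 3 lower (asv28, asv49 and asv155), against 8.77% and 6.17% of all. That contrast reuses the WT DSS libraries on which the vadinBB60 and coprostanoligenes groups were chosen, so asv28, asv49 and asv155 are not independent of the choice. The ASVs asv28, asv49, asv100 and asv282 met the filter through 1 genotype alone. For asv208 the KO libraries met it without the 1 WT library. The ASV asv155 met it with 1 KO healthy library beside those of WT DSS.

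Between DSS and healthy in WT mice, 3 of the 27 were higher (asv28, asv49 and asv155) and none lower (at an unadjusted p under 0.05, 9 of the 27 changed in either direction in edgeR), against 4.55% and 12.7% of all ASVs. All 3 belong to families chosen on this contrast, so nothing is read from their direction. In KO mice 1 was higher (asv53, chosen on it) and 3 lower (asv175, asv202 and asv224), against 11% and 17.9%. In the interaction 1 was higher (asv53) and 1 lower (asv155), against 3.25% and 2.27%. The interactions of asv28, asv100, asv202 and asv282 could not be fitted. Both healthy groups had no read of asv28, both WT groups none of asv100 and asv282, and both DSS groups none of asv202. With limma on centred log-ratios the higher and lower counts were 5 and 2, 2 and 4, 8 and 1, 3 and 3, and 1 and 3 in the 5 contrasts in this order. The comparisons share libraries with each other, so these counts are not independent. The median log2 fold change over the 27 was 0.38, 0.33, 0.77 and 0 in the 4 pairwise contrasts in this order, beside -0.14, 0, -0.54 and 0 over all 308.

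At the level of taxa, 6.06% of the 66 passed the threshold between KO and WT healthy, 22.7% between DSS and healthy in WT mice, 34.8% in KO mice and 4.55% in the interaction. Related ASVs outside the 3 families give the setting of these counts. In the order Oscillospirales, which holds the coprostanoligenes group, 83 other ASVs were tested. Between genotypes, 0 were higher and 5 lower in KO healthy (edgeR, 13 in either direction at an unadjusted p under 0.05), and 9 were higher and 1 lower in KO DSS. That is 6.02% and 12% called, beside 7.14% and 14.9% of all 308 tested ASVs. In WT mice 1 was higher and 7 were lower under DSS (9.64%, beside 17.2% of all). In KO mice 12 were higher and 4 lower (19.3%, beside 28.9%). Of all 308, 11% were higher and 17.9% lower in KO mice, so the balance of directions was the other way. Whether this is particular to the order was not tested. Of the 253 tested ASVs of class Clostridia outside the 3 families, 7 were higher and 36 lower under DSS in WT mice (17%). Of all 308, 14 were higher and 39 lower there. The 253 are most of the 308, so the likeness is built in and these counts are no result about the relatives.

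The families varied over the 16 libraries with different taxa. For the vadinBB60 group the 3 taxa with the highest Spearman rho of percent share were Anaerostipes (0.69), Intestinimonas (0.56) and RF39 (0.46), of 63 taxa compared. For the coprostanoligenes group they were Anaerostipes (0.73), Clostridia_UCG-014 (0.65) and Parabacteroides (0.64). For Monoglobaceae they were Parabacteroides (0.64), Clostridia_UCG-014 (0.61) and Ruminococcus (0.59). Anaerostipes, like asv28, had reads only in WT DSS, at a mean of 3.02%. Ruminococcus was at 0% in KO healthy and at 1.61%, 0.231% and 2.32% in WT healthy, WT DSS and KO DSS. Between the families rho was 0.48 for the vadinBB60 and coprostanoligenes groups, 0.53 for the coprostanoligenes group and Monoglobaceae, and -0.06 for the vadinBB60 group and Monoglobaceae. These are descriptions over libraries of 4 groups, in which all shares sum to a whole.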

How the data were processed

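Stool DNA of 16 libraries was amplified with primers for the V3–V4 part of the bacterial 16S gene and read on a MiSeq, per the labels. The authors deposited a table of read counts per ASV and library, which are raw counts and were not rarefied, with taxonomy. A deposited table gives the confidence of each assignment as a fraction. The submitters' processing notes name cutadapt. The denoiser, classifier and taxonomy database are not given in the sources used here. Both tables gave the same family and genus for all 1330 ASVs.

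Members and lists were chosen with earlier results of these data known. Named ASVs are the 3 with most reads per family and any other past the threshold in a contrast, 15 in all, with exceptions marked. Reads were summed to 340 taxa, the 3 families at family rank and the others by genus or the next named rank (387 ASVs had no genus name). A minimum of 5 reads in 4 or more libraries left 308 ASVs and 66 taxa, which were fitted with edgeR 4.0.16 in R 4.3.3 (quasi-likelihood, TMM, all 16 libraries, 1 coefficient per group). P-values were adjusted by Benjamini-Hochberg, with 0.05 as the threshold. The steps were tested on simulated data. SE is the log2 fold change over the root of F. Fold bounds set a group with no read at 3 reads per library. Folds of shares are ratios of mean percents. The alternatives were other scalings (TMMwsp, RLE, totals), DESeq2 1.42.0, limma 3.58.1 on centred log-ratios with 0.5 added, other filters, subsets of libraries and ASVs, and a replicate block.

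Replicates of a group differed far beyond counting noise, the lowest chi-square over its degrees of freedom being 28.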

Additional observations from a re-analysis of the deposited data

Results flagged for a closer look

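In 13 of 51 groups of 4 libraries checked, 1 library lay apart from the others by Dixon's criterion. Chance gives this in about 1 of 20 groups of normal values, a rate that does not hold here. Most flags are of items seen in 1 library of the group, where the flag follows from the zeros. In KO healthy the library apart was at 0.123% for the coprostanoligenes group and for asv121 (replicate 0). It was at 0.0071% for Monoglobaceae and asv53 and at 0.00533% for asv49 (replicate 2). It was at 0.218% for asv100 and 0.0108% for asv155 (replicate 3), and at 0.111% for asv208 (replicate 0). In WT healthy it was at 0.232% for asv121, 0.0171% for asv202, 0.0241% for asv208 and 0.378% for asv216. In WT DSS it was at 0.0331% for asv224.

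The genotype effect differed between DSS and healthy libraries for Monoglobaceae (interaction 6.17 on the log2 scale), for asv53 (6.31) and for asv155 (-13.53). All 3 belong to families chosen on a contrast that is part of the interaction, so the values are a description. The value for asv155 rests on 6 healthy reads, all in KO healthy replicate 3, and without that library both healthy groups have no read and the interaction could not be fitted.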

How the results depend on the processing

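Of the family values outside the contrasts used in the choice, the settings other than leaving out a library kept direction and side of the threshold in 82 of 96. For the vadinBB60 group in KO mice, DSS against healthy turned from 0.03 to -0.54 with TMMwsp scaling, -0.15 with RLE, -0.085 with totals only, -0.15 with DESeq2 and -0.16 with limma. It was -0.065 with no filter, -0.20 with a filter of 20 reads, -0.10 with only the groups compared, -0.10 without ASVs of 1 library, -0.10 with library totals over all ASVs (chosen after seeing the data) and -0.52 with all ASVs at family rank. With 1 library left out it ran from -0.30 to 0.26. For the vadinBB60 group TMMwsp gave -1.67 for KO against WT under DSS and -3.05 for the interaction, and totals only gave 1.65 for DSS in WT mice. Without ASVs of 1 library, which removes asv216, the coprostanoligenes group was at 5.57 for DSS in WT mice and -4.72 for the interaction. With the replicate block, KO against WT under DSS was -4.80 for the coprostanoligenes group, no longer past the threshold, and turned to 0.22 for Monoglobaceae. The block left 1 member ASV past the threshold in KO against WT healthy and 0 in the interaction. In DSS against healthy KO it left 1, and asv175, asv202 and asv224 all lost the call (edgeR adjusted p = 0.0583 for asv175). The numbers were not taken as pairs, since same-number deviations correlated over 0.1 in 0 of 4 pairs in each pairwise contrast over ASVs, and over taxa in 2 of 4 between genotypes in healthy mice, 1 of 4 under DSS and 0 of 4 in the DSS contrasts. Where no construction is named, the cause was not tested.

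Leaving out 1 library at a time gave -5.72 to -4.34 for the coprostanoligenes group in KO against WT under DSS and -0.77 to 0.30 for Monoglobaceae, the latter above 0 without WT DSS or KO DSS replicate 2. Monoglobaceae ran from -10.0 to -6.20 in KO against WT healthy, 6.50 to 10.34 in DSS against healthy KO and 5.73 to 9.54 in the interaction. Member ASVs past the threshold ran from 0 to 3, 3 to 6, 1 to 4, 2 to 4 and 0 to 1 in the 5 contrasts in the order of the report, against 4, 6, 3, 4 and 2. KO against WT healthy had 7 with limma and 2 with only the groups compared. DSS against healthy WT had 5 with DESeq2, 9 with limma and 5 with no filter. The interaction had 0 with TMMwsp (edgeR, 6 at an unadjusted p under 0.05, and 5 with the block) and 4 with DESeq2 and with limma. Of ASV calls outside the contrasts used in the choice, 44 of 96 runs with a library left out kept the call. All of these calls but that of asv175 are descriptions with no test, so the 44 measure no tested result. The asv175 call held in all 8 runs and was lost with the replicate block. The asv49 and asv100 values for KO against WT under DSS passed the threshold in every setting and run but are descriptions only. Depth limits ASVs under about 3 reads per library.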
